A study of Mus musculus with 12 samples.

Results

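RNA levels of 8 growth factor receptor kinases and of the ligands of 2 of them were followed in mouse sarcomas and in the marrow stromal cells they were compared with. The receptors were Met, Egfr, Erbb2, Erbb3, Axl, Fgfr1, Fgfr2 and Fgfr3, and the ligands were Hgf, which binds MET, and Gas6, which binds AXL. The genes were taken by their symbols. They are 10 of the 24421 genes in the deposited table of stabilized values, and all 10 were among the 18949 genes that both deposited tables hold.

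Bulk RNA of 12 libraries fell into 3 groups. There were 6 libraries of sarcomas from bone or bone marrow of p53 knockout (KO) mice, 3 of mesenchymal stem cells (MSCs) from p53 KO mice and 3 of MSCs from p53 wild-type (WT) mice. The MSCs are marrow stromal cells, freshly isolated and sorted as positive for CD140a (the receptor PDGFRA) and LepR (the leptin receptor) and negative for CD45, Ter119 and CD31, which mark blood cells, erythroid cells and endothelium. Tumor RNA was extracted with TRIzol, no sort of the tumors is described, and their label gives the cell type as tumor cell. The labels name the genotype only as p53 knockout or wild type and give no allele, strain, sex or age. RNA of all groups was copied with the low-input kit SMART-Seq v4.

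A receptor tyrosine kinase spans the cell membrane. When its ligand joins 2 receptors, they phosphorylate each other and recruit adaptors such as GRB2, SHC1 and GAB1, which switch on RAS, the kinases RAF, MEK and ERK, and PI3-kinase. ERK signaling induces its own brakes, among them the Sprouty proteins. In bone marrow and connective tissue HGF is made by stromal cells, FGF receptors govern growth of cartilage and bone, and GAS6 carries a vitamin K-dependent domain that lets AXL recognise cells exposing phosphatidylserine. MET, AXL, FGFR1 and the ERBB receptors are known as drug targets in several tumor types.

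The values are log2 values on a stabilized, batch-adjusted scale. The scale flattens to a floor where reads are few, so differences between low values are understated, and levels of different genes cannot be set against each other because the values are not per length. The libraries formed 2 sets, each with floor values of its own that its members share exactly. Set 1 held tumors 1 to 3, the library labelled KO_MSC 1 and WT_MSC 1, and set 2 held the other 7 libraries. The floor of a gene can differ between the sets, and main differences are therefore also given within each set. The library labelled KO_MSC 1 had 2632 genes at the floor and WT_MSC 1 had 3730, against 9251 to 12336 in the other 10 libraries. Trp53, the gene behind the genotype labels, had a median of 7.68 in tumors with a range of 6.79 to 9.16. The libraries labelled KO_MSC 1, 2 and 3 had Trp53 values of 10.49, 9.76 and 6.96, against 9.96, 10.04 and 10.61 in WT MSCs. The libraries labelled KO_MSC 1 and 2 thus lay at or near the WT level of Trp53, and which part of the gene was deleted is not stated, so every direction drawn from KO MSCs rests on the labels. LepR+ stromal markers averaged 6.94 to 9.12 in tumors, 11.28 to 12.07 in KO MSCs and 12.50 to 13.60 in WT MSCs. Macrophage markers averaged 10.94 to 14.59 in tumors, 5.38 to 6.81 in KO MSCs and 5.25 to 6.83 in WT MSCs. In bulk samples, fewer cells of a type and less RNA per cell cannot be told apart.

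The main differences among the 10 genes lay between tumors and WT MSCs. Gas6, Egfr, Erbb2, Fgfr2 and Fgfr3 were lower in tumors than in WT MSCs, with log2 differences between -5.23 and -2.70, and so was Erbb3, with -0.41. Met had higher values in all 6 tumors than in any MSC library, but its mean difference did not pass the test. Counted from the floor of each library's set, tumor 6 did not lie above all MSC libraries. Axl, Fgfr1 and Hgf overlapped between tumors and WT MSCs. In the fit of tumors and WT MSCs, 6 of the 10 genes were called, all lower, where 21.3% of the 18948 genes tested were called (10.9% lower and 10.4% higher). The median difference of the 10 genes was -1.84, beside -0.06 for all genes tested. A call is an adjusted p under 0.05 from limma with Benjamini-Hochberg adjustment over all genes tested. In the fit of tumors and KO MSCs, 1 of the 10 genes was called, Gas6, and it was lower. The background there was 4.98% of genes called (2.28% lower and 2.7% higher), and the median difference was -0.73 for the 10 genes and 0.04 for all. Both comparisons use the same 6 tumors and are not independent. The 10 genes were chosen with earlier results of these data known, so their counts beside those of all genes are description only.

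The start regions of 5 of the 6 genes called lower in tumors than in WT MSCs are shown because these genes share that direction of the mean. Each is the 250 bases before the gene's start in RefSeq (GRCm38.p6, the mm10 build), read on the gene's own strand. They are Gas6 at chr8:13494536-13494785 (minus strand), Egfr at chr11:16751953-16752202 (plus), Erbb2 at chr11:98412234-98412483 (plus), Fgfr2 at chr7:130266809-130267058 (minus) and Fgfr3 at chr5:33721474-33721723 (plus). Capitals mark the GC box GGGCGG, a motif bound by SP1 and related factors, on either strand, where it reads CCGCCC on the other one. Erbb3 and Fgfr1 are named only.
Gas6: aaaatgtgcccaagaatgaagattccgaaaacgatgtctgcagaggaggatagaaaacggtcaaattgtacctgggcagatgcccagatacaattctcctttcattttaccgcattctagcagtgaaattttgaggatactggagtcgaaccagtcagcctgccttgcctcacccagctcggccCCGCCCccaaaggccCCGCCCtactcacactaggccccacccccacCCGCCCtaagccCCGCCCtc
Egfr: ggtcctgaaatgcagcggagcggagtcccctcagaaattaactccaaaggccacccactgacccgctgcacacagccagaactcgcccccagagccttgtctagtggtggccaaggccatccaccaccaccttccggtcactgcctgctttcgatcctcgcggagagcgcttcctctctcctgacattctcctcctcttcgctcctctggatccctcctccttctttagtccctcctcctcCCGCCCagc
Erbb2: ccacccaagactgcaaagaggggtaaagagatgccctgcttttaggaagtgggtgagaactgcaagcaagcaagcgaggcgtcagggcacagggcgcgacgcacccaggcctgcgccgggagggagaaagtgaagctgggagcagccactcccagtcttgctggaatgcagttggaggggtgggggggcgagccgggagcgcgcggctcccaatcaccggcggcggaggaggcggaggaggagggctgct
Fgfr2: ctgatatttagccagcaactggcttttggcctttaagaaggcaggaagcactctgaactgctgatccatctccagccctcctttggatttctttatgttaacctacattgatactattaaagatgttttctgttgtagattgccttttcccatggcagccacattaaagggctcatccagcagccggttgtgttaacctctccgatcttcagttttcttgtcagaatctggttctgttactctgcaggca
Fgfr3: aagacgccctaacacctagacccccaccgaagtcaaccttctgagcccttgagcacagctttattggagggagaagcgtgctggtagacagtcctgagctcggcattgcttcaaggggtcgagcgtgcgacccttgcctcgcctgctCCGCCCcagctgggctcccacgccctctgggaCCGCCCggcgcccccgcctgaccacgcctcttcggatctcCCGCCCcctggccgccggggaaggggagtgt

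The Gas6 region held 4 GC boxes, that of Fgfr3 held 3 and that of Egfr 1, while these letters are not in the Erbb2 and Fgfr2 windows. The windows of Met and Axl, which were not called lower, held 3 and 1, so that 5 of the 8 genes in the table had a GC box. A GC box was in 32.7% of the 32841 promoter windows of the same length in the table. The 8 of 10 genes that the table holds were also searched for the AP-1 motif TGANTCA on both strands, which FOS and JUN proteins bind and which 6.8% of windows hold. It was found in the window of Met, the only 1 of the 10 genes with higher values in every tumor than in every MSC library. The 29 bases printed, with the motif in capitals, lie at chr6:17463892-17463920 on the plus strand, inside the annotated Met gene. The motifs overlapped at no place printed. Such matches describe the letters only.
Met: tgttgcccggcTGAGTCAcgggccgggca

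The receptor gene Met (chr6:17463349-17573980, plus strand) encodes the HGF receptor, which drives scattering and invasion of epithelial cells. Met was at 6.18 in the lowest tumor, 7.51 at the median and 11.13 in the highest, tumor 4. The libraries labelled KO_MSC 1, 2 and 3 had Met at 5.55, 5.39 and 5.39, against 5.16, 5.39 and 5.39 in WT MSCs. All 6 tumors lay above all 6 MSC libraries, 4 of which were at the floor of set 2. In set 1, where the floor of Met was 4.11, tumors 1, 2 and 3 lay 3.31, 3.48 and 2.25 above it. The library labelled KO_MSC 1 lay 1.44 above it and WT_MSC 1 lay 1.04 above it. In set 2, where the floor was 5.39, tumors 4, 5 and 6 lay 5.74, 2.69 and 0.79 above it. Counted from the floors, tumor 6 thus lay below the libraries labelled KO_MSC 1 and WT_MSC 1. By the values as deposited, non-overlap with higher tumors was found in 12.9% of all genes against WT MSCs and in 8.0% against KO MSCs. Met was the only 1 of the 10 genes in either. The mean was 7.80 ± 1.79 in tumors (SD, n = 6), 5.44 ± 0.09 in KO MSCs and 5.31 ± 0.14 in WT MSCs (SD, n = 3 each). Against KO MSCs the difference was 2.35 ± 0.90 (standard error; limma adjusted p = 0.147), and against WT MSCs it was 2.48 ± 0.90 (limma adjusted p = 0.0738). Neither passed. Within set 1 the differences were 1.58 from KO MSCs and 1.97 from WT MSCs, and within set 2 both were 3.07. Tumor 4 set much of the spread: without it the difference from WT MSCs was 1.81 and passed (limma adjusted p = 0.0179).

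Hgf (chr5:16553495-16619439, plus strand), the ligand of MET, was at 5.38 in the lowest tumor, 5.67 at the median and 7.62 in the highest. KO MSCs had 6.10, 5.87 and 4.64, against 6.28, 7.13 and 6.72 in WT MSCs. Tumors overlapped both kinds of MSC. The difference was 0.61 ± 0.58 from KO MSCs (limma adjusted p = 0.532) and -0.56 ± 0.54 from WT MSCs (limma adjusted p = 0.474). The order of the means was WT MSC, tumor and KO MSC, and no neighbors in it differed beyond their spread. Tumors 4 and 2 had the highest Hgf, 7.62 and 7.15, and both had Met above the tumor median of 7.51, at 11.13 and 7.59. Over the 6 tumors Hgf and Met correlated with a Pearson's r of 0.809 (exact permutation p = 0.0583, adjusted 0.117) and a Spearman's rho of 0.943 (exact permutation p = 0.0167, adjusted 0.0334). These p-values are two-sided and adjusted over the 2 ligand and receptor relations tested, separately for r and for rho. The correlations were planned as description only, without a test, so the adjusted p of rho is not taken as a call. Without tumors 2 and 4, the farthest from the Hgf median, r was 0.994 over 4 tumors, whose Hgf spanned only 5.38 to 5.72. Over all 6 tumors Hgf had a higher r with Axl (0.978) than with Met, and a slightly lower one with Fgfr1 (0.777). Met and Axl had an r of 0.887. The high r was thus not particular to Hgf and its receptor. Within each set the 3 tumors had the same order by Hgf as by Met, and no test was run within sets.

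**Figure D1:**
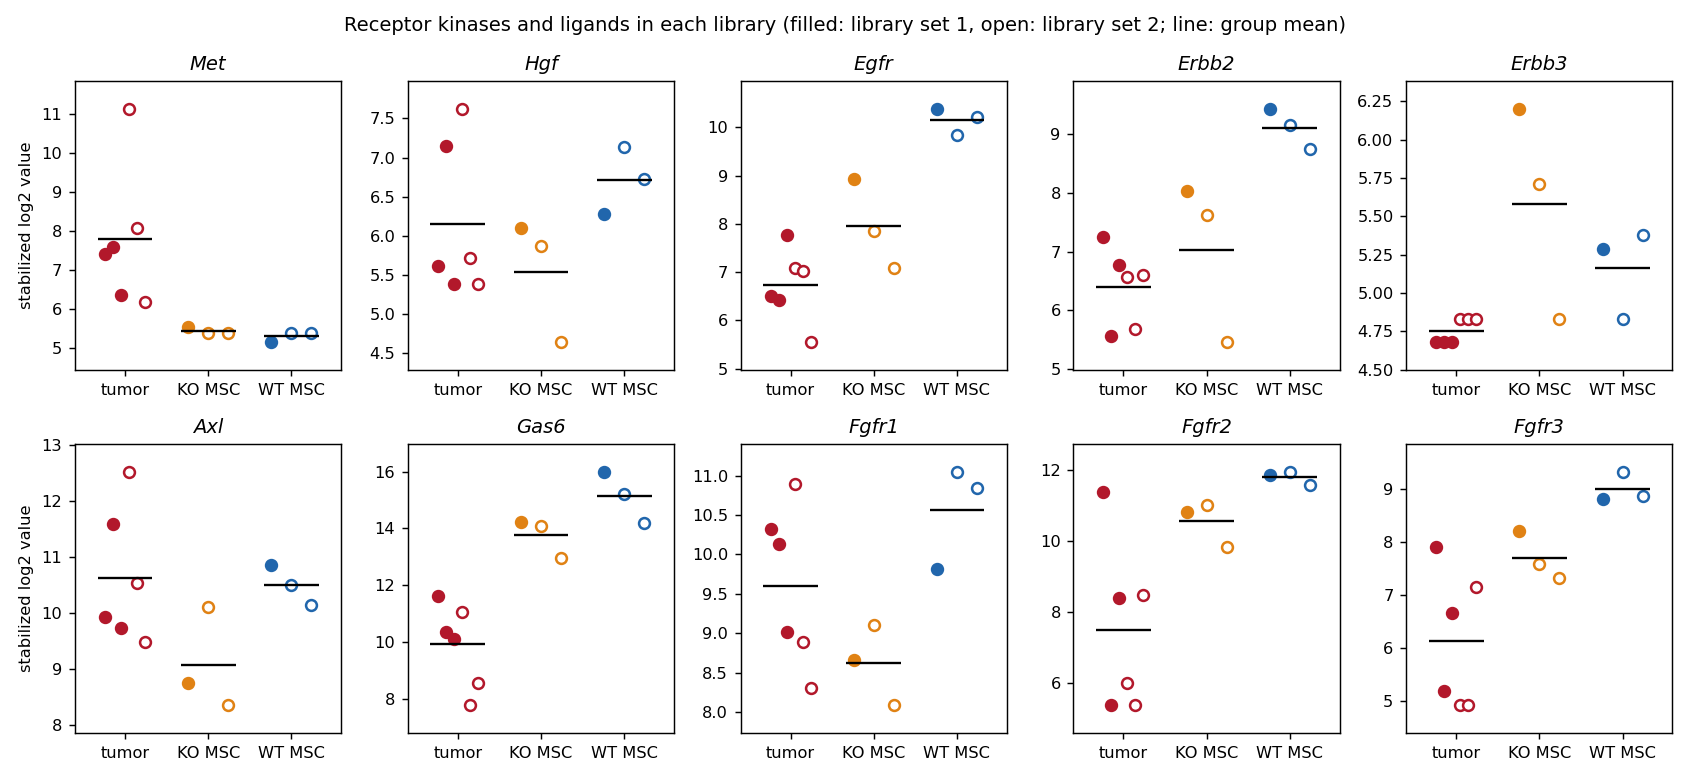
Stabilized log2 value (vertical axis) of each of the 10 genes in every library, with tumors, KO MSCs and WT MSCs from left to right. Points are libraries (filled for set 1, open for set 2), lines are group means, and each panel has its own vertical range; Met lies above all MSC libraries in all 6 tumors and Egfr, Erbb2, Gas6, Fgfr2 and Fgfr3 lie below all WT MSC libraries.

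Of the proteins that activate HGF or work beside MET, 10 genes were measured. Plaur, the urokinase receptor, passed against both kinds of MSC. It had 6.91 in the lowest tumor, 9.30 at the median and 11.27 in the highest, against 6.81, 5.86 and 5.86 in KO MSCs and 5.68, 6.41 and 5.86 in WT MSCs. The difference was 3.0 ± 0.78 from KO MSCs (limma adjusted p = 0.0491), with 1.39 within set 1 and 4.29 within set 2. This call was lost with the library set as a term (adjusted p = 0.0524) and on leaving out any library but tumor 1 (up to 0.155). It was 3.20 ± 0.77 from WT MSCs (limma adjusted p = 0.0143), a call lost without WT_MSC 1 or 3 (up to 0.0741). Gab1, a docking protein that binds active MET, fell in tumors against WT MSCs by 2.14 ± 0.35 on the log2 scale (limma adjusted p = 0.00263). Its tumor values ran from 6.47 to 8.14 and its WT MSC values from 9.41 to 9.50. Against WT MSCs 2 of the 10 were called higher and 2 lower, and against KO MSCs 1 was called higher and 0 lower.

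Among the ERBB receptors, Egfr (chr11:16752203-16913907, plus strand) encodes the receptor of EGF, TGF-alpha and related ligands. Egfr was at 5.55 in the lowest tumor, 6.77 at the median and 7.77 in the highest. KO MSCs had 8.93, 7.85 and 7.08, against 10.38, 9.85 and 10.21 in WT MSCs. Every tumor lay below every WT MSC library, while tumors and KO MSCs overlapped. Among all genes tested, 12.3% lay lower in tumors without overlap against WT MSCs, as 5 of the 10 genes did. The means were 6.73 ± 0.75 in tumors (SD, n = 6), 7.95 ± 0.93 in KO MSCs and 10.15 ± 0.27 in WT MSCs (SD, n = 3 each). Against WT MSCs the difference was -3.42 ± 0.44 (limma adjusted p = 0.00133), and it was -3.48 within each set. Against KO MSCs it was -1.23 ± 0.56 (limma adjusted p = 0.190), which did not pass, with -2.03 within set 1 and -0.92 within set 2. The call against WT MSCs held in every fit that left out 1 library, where the adjusted p reached at most 0.0135.

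Erbb2 (chr11:98412484-98437716, plus strand) encodes a receptor with no known ligand of its own that signals through its partners. Erbb2 was at 5.56 in the lowest tumor, 6.58 at the median and 7.25 in the highest. KO MSCs had 8.02, 7.62 and 5.46, against 9.42, 9.15 and 8.74 in WT MSCs. Tumors lay wholly below WT MSCs and overlapped KO MSCs, where the library labelled KO_MSC 3 was the lowest of all 12 libraries. The difference from WT MSCs was -2.70 ± 0.42 (limma adjusted p = 0.00217), with -2.89 within set 1 and -2.67 within set 2, and that from KO MSCs was -0.63 ± 0.61 (limma adjusted p = 0.542).

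Erbb3 (chr10:128567523-128589635, minus strand) encodes a neuregulin receptor with little kinase activity of its own that relies on ERBB2. Erbb3 was at the floor in all 6 tumors, which is 4.68 in set 1 and 4.83 in set 2. The libraries labelled KO_MSC 1 and 2 had 6.20 and 5.71 and KO_MSC 3 was at the floor, while WT MSCs had 5.29, 4.83 and 5.38, of which WT_MSC 2 was at the floor. Erbb3 was thus not detectable in these tumors and near the floor elsewhere. Its difference of -0.41 ± 0.13 from WT MSCs passed with a limma adjusted p of 0.0473, and this call was lost on leaving out any of 8 of the 9 libraries and with the library set as a term (limma adjusted p = 0.0653). Against KO MSCs the difference was -0.83 ± 0.24 (limma adjusted p = 0.0701), which passed without the library labelled KO_MSC 3 (0.00606).

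The ERBB ligands and related genes numbered 14 tested, of which 1 rose in each comparison of tumors and 1 fell against WT MSCs. The gene that rose was Hbegf, heparin-binding EGF-like growth factor, a ligand of EGFR and ERBB4. Hbegf had 8.01 in the lowest tumor, 9.63 at the median and 12.39 in the highest, against 5.73, 6.71 and 5.86 in KO MSCs and 5.09, 5.86 and 6.80 in WT MSCs. Its difference was 3.79 ± 0.91 from KO MSCs (limma adjusted p = 0.0377) and 3.97 ± 0.94 from WT MSCs (0.0138). The calls were lost without tumor 2, tumor 4 or any KO MSC library (adjusted p up to 0.185) and without WT_MSC 1 or 2 (up to 0.0822). The gene that fell was Nrg3, a neuregulin that binds ERBB4. Nrg3 was at the floor in all 6 tumors and at 5.93, 6.04 and 5.83 in WT MSCs, with a difference of -1.19 ± 0.12 (limma adjusted p = 0.000716). Areg, Ereg and Btc, which encode the EGFR ligands amphiregulin, epiregulin and betacellulin and were chosen for display after their values were seen, did not pass and varied among tumors. Btc had 9.80, 8.38 and 9.81 in tumors 2, 4 and 5 and 4.72, 4.72 and 5.57 in tumors 1, 3 and 6. Areg had 7.95, 6.37 and 8.06 in tumors 2, 4 and 5 and 4.57, 4.57 and 4.93 in tumors 1, 3 and 6. Ereg followed with 7.89, 6.34 and 7.45 in tumors 2, 4 and 5 and 4.53, 4.53 and 5.46 in tumors 1, 3 and 6. Epithelial markers averaged 4.82 to 5.61 in tumors, 4.84 to 5.24 in KO MSCs and 4.84 to 4.91 in WT MSCs, with 0 of 8 called in any of the 3 comparisons.

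Axl (chr7:25756500-25788924, minus strand) encodes a receptor of the TAM family, with TYRO3 and MERTK, that takes part in clearing dying cells and in tumor cell survival. Axl was at 9.49 in the lowest tumor, 10.24 at the median and 12.53 in the highest. KO MSCs had 8.76, 10.11 and 8.36, against 10.87, 10.50 and 10.14 in WT MSCs. Tumors overlapped both kinds of MSC. The means were 10.64 ± 1.20 in tumors (SD, n = 6), 9.08 ± 0.92 in KO MSCs and 10.50 ± 0.36 in WT MSCs (SD, n = 3 each). The difference from KO MSCs was 1.56 ± 0.68 (limma adjusted p = 0.178), with 1.66 within set 1 and 1.62 within set 2. That from WT MSCs was 0.13 ± 0.63 (limma adjusted p = 0.897), with -0.45 within set 1 and 0.53 within set 2.

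Gas6 (chr8:13465374-13494535, minus strand), the ligand of AXL, had the largest difference of the 10 genes in both comparisons of tumors. Gas6 was at 7.78 in the lowest tumor, 10.24 at the median and 11.62 in the highest. KO MSCs had 14.24, 14.08 and 12.95, against 16.00, 15.22 and 14.21 in WT MSCs. Every tumor lay below every MSC library, while KO and WT MSCs overlapped. Gas6 was the only 1 of the 10 genes without overlap below KO MSCs, as were 5.39% of all genes. The means were 9.92 ± 1.47 in tumors (SD, n = 6), 13.76 ± 0.71 in KO MSCs and 15.14 ± 0.89 in WT MSCs (SD, n = 3 each). Against KO MSCs the difference was -3.84 ± 0.78 (limma adjusted p = 0.0204), with -3.55 within set 1 and -4.38 within set 2. Against WT MSCs it was -5.23 ± 0.81 (limma adjusted p = 0.00215), with -5.30 within set 1 and -5.58 within set 2. The call against KO MSCs was lost without the library labelled KO_MSC 1 (limma adjusted p = 0.130) or KO_MSC 2 (0.0756). The call against WT MSCs held without any 1 library. LepR+ stromal markers were lower too, with 10 of 10 called lower in tumors against WT MSCs and 6 of 10 against KO MSCs. Among all genes tested, 10.9% and 2.28% were called lower. The MSCs were sorted as positive for LepR and CD140a, whose genes Lepr and Pdgfra are in this list. These counts are therefore not independent of the sort. None of the markers was at the floor in all tumors, and their part in the level of Gas6 was not tested.

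Over the 6 tumors Gas6 and Axl had a Pearson's r of 0.34 (exact permutation p = 0.533, adjusted 0.533) and a Spearman's rho of 0.371 (exact permutation p = 0.497, adjusted 0.497). Without tumors 5 and 6 r was 0.0542. Among the 5 other TAM genes tested, Pros1 encodes protein S, the second ligand of the family, which binds TYRO3 and MERTK. Pros1 had 7.13 in the lowest tumor, 9.38 at the median and 10.38 in the highest, against 12.46, 12.42 and 11.74 in WT MSCs, and fell by 3.04 ± 0.64 on the log2 scale (limma adjusted p = 0.00800). Socs3, which encodes a brake on cytokine receptors that TAM signaling induces in dendritic cells, fell in both comparisons. It had 6.35 in the lowest tumor, 7.62 at the median and 8.72 in the highest, against 10.86, 9.91 and 10.75 in KO MSCs and 12.65, 12.27 and 11.37 in WT MSCs. The difference was -2.88 ± 0.51 from KO MSCs (limma adjusted p = 0.0113) and -4.47 ± 0.50 from WT MSCs (0.000992), and the call against KO MSCs was lost without the library labelled KO_MSC 1 (0.0929). The other 3 TAM genes, Tyro3, Mertk and Socs1, did not pass in either comparison.

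Fgfr1 (chr8:25518759-25575718, plus strand) encodes the FGF receptor of most connective tissue cells. Fgfr1 was at 8.31 in the lowest tumor, 9.57 at the median and 10.89 in the highest. KO MSCs had 8.66, 9.10 and 8.09, against 9.81, 11.05 and 10.84 in WT MSCs. Tumors overlapped both kinds of MSC. The difference was 0.98 ± 0.57 from KO MSCs (limma adjusted p = 0.287) and -0.98 ± 0.57 from WT MSCs (limma adjusted p = 0.231). Within set 1 the difference from WT MSCs was 0.01 and within set 2 it was -1.58.

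Fgfr2 (chr7:130162451-130266808, minus strand), an FGF receptor of bone-forming and epithelial cells, varied most among the tumors. Fgfr2 had 11.36, 8.40 and 8.46 in tumors 1, 3 and 6 and 5.38, 5.99 and 5.38 in tumors 2, 4 and 5. KO MSCs had 10.82, 10.99 and 9.81, against 11.86, 11.94 and 11.58 in WT MSCs. All tumors lay below WT MSCs, while tumor 1 lay above all KO MSCs and the other 5 tumors lay below them. The SD over tumors was 2.36, larger than that of 99.3% of genes tested. Those genes include some at the floor in tumors, and their median SD was 0.525. The means were 7.50 ± 2.36 in tumors (SD, n = 6), 10.54 ± 0.63 in KO MSCs and 11.80 ± 0.19 in WT MSCs (SD, n = 3 each). Against WT MSCs the difference was -4.30 ± 1.16 (limma adjusted p = 0.0244), with -3.48 within set 1 and -5.15 within set 2. This call was lost without WT_MSC 1 (limma adjusted p = 0.0955), WT_MSC 2 (0.0833) or WT_MSC 3 (0.0738). Against KO MSCs the difference was -3.04 ± 1.15 (limma adjusted p = 0.142), with -2.44 within set 1 and -3.79 within set 2, and it passed without tumor 1 (0.0310).

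Fgfr3 (chr5:33721724-33737068, plus strand) encodes a receptor known for restraining growth of cartilage. Fgfr3 had 7.90, 6.65 and 7.14 in tumors 1, 3 and 6 and 5.19, 4.92 and 4.92 in tumors 2, 4 and 5, of which tumors 4 and 5 were at the floor. KO MSCs had 8.20, 7.57 and 7.31, against 8.81, 9.32 and 8.87 in WT MSCs. Every tumor lay below every WT MSC library, and tumor 1 lay among the KO MSCs. The difference from WT MSCs was -2.88 ± 0.67 (limma adjusted p = 0.0128), with -2.23 within set 1 and -3.44 within set 2. This call was lost without WT_MSC 1 (limma adjusted p = 0.0533) or WT_MSC 2 (0.0589). The difference from KO MSCs was -1.57 ± 0.70 (limma adjusted p = 0.182), with -1.63 within set 1 and -1.78 within set 2. The library kit does not mark strand, and 998 exon bases of Fgfr3 are shared with G630022F23Rik on the other strand. On the same strand, 484 exon bases of Hgf are shared with Gm43489 and 314 of Fgfr2 with Ctbp2. The Fgfr2 overlap is from GENCODE, where the gene runs to 133123350, beyond its RefSeq end at 130266808. Smaller overlaps on the other strand were 164 exon bases of Fgfr1 with Gm16159, 34 of Gas6 with Tmem255b and 9 of Erbb2 with Mien1. Part of the reads of Fgfr3, Hgf, Fgfr2, Fgfr1, Gas6 and Erbb2 could come from those genes.

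The tumors with more Fgfr2 and Fgfr3 were also those with higher cartilage and bone markers, taken as the mean of a list of 10 genes. Ibsp, which encodes a sialoprotein of bone matrix, had 19.26, 16.22 and 16.00 in tumors 1, 3 and 6 and 8.79, 8.56 and 9.35 in tumors 2, 4 and 5. Not all of the list ran this way. Sox9, the transcription factor gene of cartilage, had 7.43, 7.58 and 6.58 in tumors 1, 3 and 6 and 9.03, 11.18 and 8.98 in tumors 2, 4 and 5. The 10 markers averaged 11.28, 9.66 and 9.41 in tumors 1, 3 and 6 and 6.41, 7.28 and 7.30 in tumors 2, 4 and 5, against 7.48 to 9.22 in KO MSCs and 8.12 to 9.57 in WT MSCs. None of the 10 was at the floor in all tumors, and 0 of 10 were called in either comparison of tumors. Their part in the levels of Fgfr2 and Fgfr3 was not tested. Both library sets held tumors with high and low Fgfr2, tumors 1 and 2 in set 1 and tumors 6 and 5 in set 2.

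**Figure D2:**
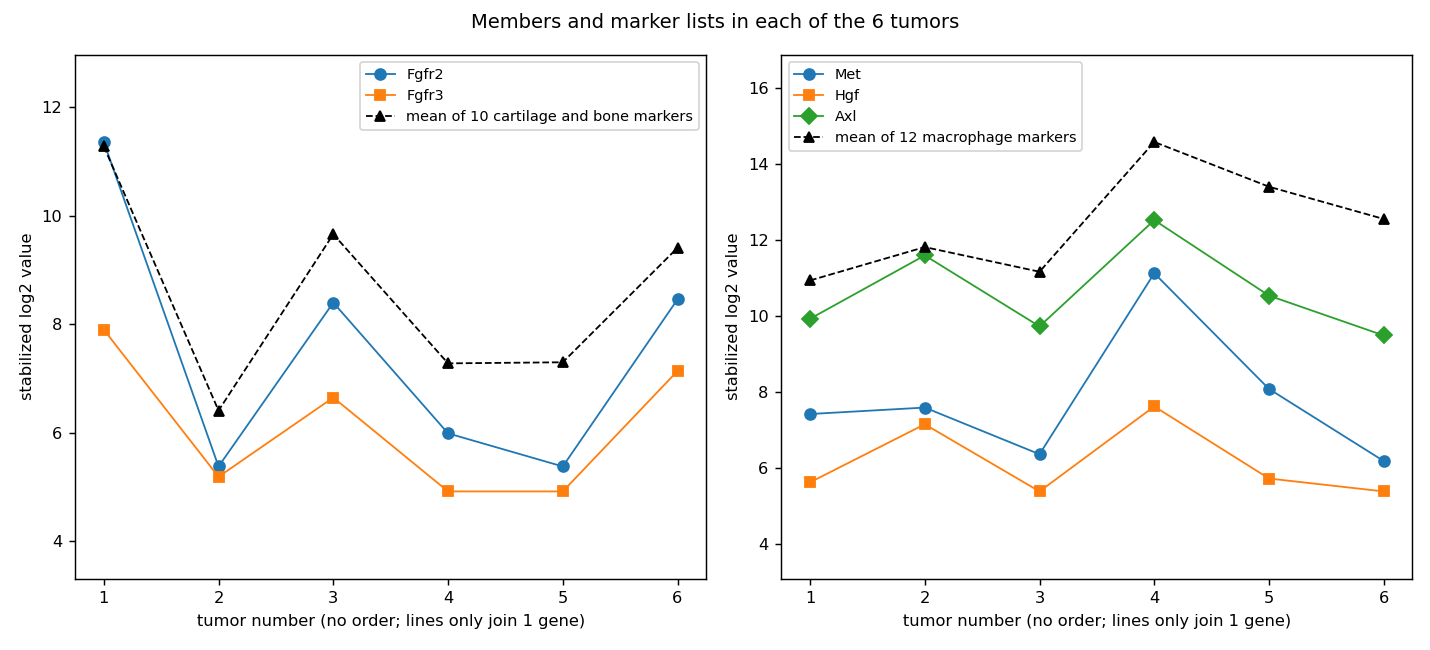
Stabilized log2 values (vertical axis) in each of the 6 tumors, whose numbers (horizontal axis) have no order. Left, Fgfr2, Fgfr3 and the mean of 10 cartilage and bone markers, all higher in tumors 1, 3 and 6; right, Met, Hgf, Axl and the mean of 12 macrophage markers, all highest in tumor 4.

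The FGF ligands numbered 19 tested, with 0 called against KO MSCs and 2 called lower against WT MSCs. Fgf7, the keratinocyte growth factor that stromal cells make for the epithelial form of FGFR2, was at 7.55 in the lowest tumor, 8.06 at the median and 9.46 in the highest, against 10.42, 10.78 and 10.20 in WT MSCs. The difference was -2.25 ± 0.43 (limma adjusted p = 0.00532). Of 12 FGF receptor relatives and coreceptors, 3 were called lower against WT MSCs and 0 against KO MSCs. Fgfrl1, a receptor that binds FGF but lacks the kinase, had 6.47 in the lowest tumor, 7.37 at the median and 8.01 in the highest, against 9.39, 9.15 and 8.68 in WT MSCs, and fell by 1.82 ± 0.38 on the log2 scale (limma adjusted p = 0.00718).

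Downstream of the receptors, 20 adaptors and transducers and 18 feedback inhibitors and targets of ERK were tested. Against WT MSCs, 2 adaptors rose and 4 fell, and 4 ERK-related genes fell while 0 rose. Pik3r1, the regulatory subunit of PI3-kinase, differed from WT MSCs by -1.96 ± 0.36 (limma adjusted p = 0.00404) and the kinase gene Braf by -1.78 ± 0.33 (0.00425). Spry1, a Sprouty inhibitor of receptor signaling, had 6.45 in the lowest tumor, 7.44 at the median and 8.41 in the highest, against 9.01, 9.10 and 9.92 in KO MSCs and 11.43, 10.05 and 9.65 in WT MSCs. Spry1 differed by -1.96 ± 0.46 from KO MSCs (limma adjusted p = 0.0345) and by -2.99 ± 0.49 from WT MSCs (0.00254), and it was the only adaptor, transducer or ERK-related gene called against KO MSCs. That call was lost without any KO MSC library or tumor 2, 3, 5 or 6 (adjusted p up to 0.123). Over all 98 pathway genes tested in the 7 lists, 5 were called higher and 18 lower against WT MSCs. That is 23.5% called, beside 21.3% of all genes tested (10.4% higher and 10.9% lower). Of these 23 pathway genes, 10 were called in every fit that left out 1 library. The share of all genes called in every such fit was not computed. These 10 were Mst1, Gab1, Nrg3, Pros1, Socs3, Fgf7, Fgfrl1, Braf, Pik3r1 and Spry1, all lower in tumors. Against KO MSCs 2 were called higher and 2 lower, which is 4.08% called beside 4.98% of all genes, and 0 of these 4 (Plaur, Hbegf, Socs3 and Spry1) were called in every such fit. The median difference of the 98 genes was -0.14 against WT MSCs and 0.17 against KO MSCs. These lists, too, were chosen with earlier results of these data known.

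**Figure D3:**
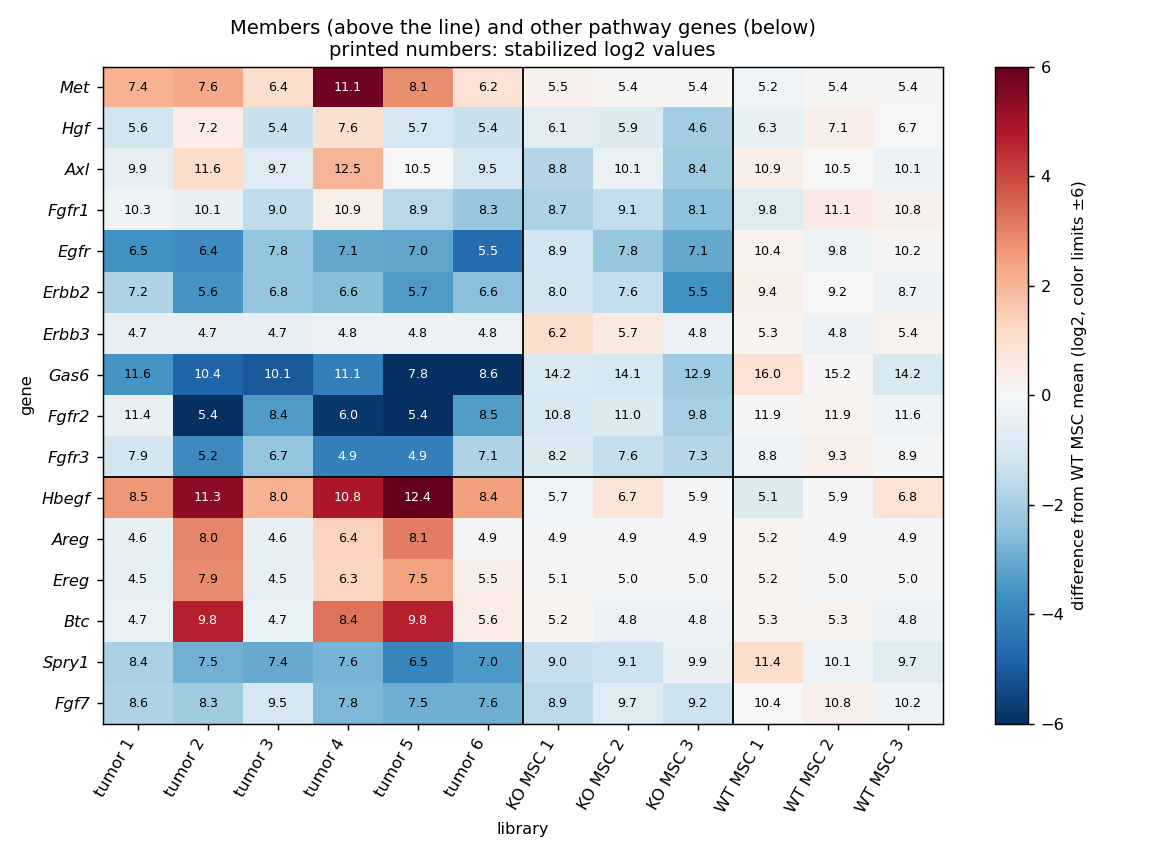
Stabilized log2 value (printed in each cell) of the 10 genes above the black line and of 6 ligands and targets below it (rows), in each of 12 libraries (columns: tumors, KO MSCs, WT MSCs). Color gives the log2 difference from the WT MSC mean; Gas6, Egfr, Fgfr2 and Fgfr3 are blue in tumors, with Fgfr2 in tumor 1 the palest, while Met and Hbegf are red.

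The tumors differed among themselves in Met, Gas6, Fgfr3 and Axl as well as in Fgfr2. The SD over tumors of Met, 1.79, was larger than that of 97.9% of genes tested, and the figures were 95.9% for Gas6, 93.7% for Fgfr3 and 92.2% for Axl. The genes tested include some at the floor in tumors, such as Erbb3 with an SD of 0.0815. Such genes vary little and raise these percentages. The value of tumor 4 was the highest for Met, Hgf, Axl and Fgfr1, where tumor 4 was the highest tumor in 33.4% of all genes tested. Tumor 1 was the highest for Erbb2, Gas6, Fgfr2 and Fgfr3, as in 16.6% of all genes. Tumor 4 also had the highest mean of macrophage markers, 14.59, the highest mean of skeletal muscle markers, 11.15 beside 5.07 to 9.0 in the other tumors, and the highest mean of endothelial markers, 9.21. All 12 macrophage markers were called higher in tumors against each kind of MSC, as were 5 of 10 endothelial markers against KO MSCs and 8 of 10 against WT MSCs. Among all genes tested, 2.7% were called higher against KO MSCs and 10.4% against WT MSCs. The MSCs were sorted as negative for CD45 and CD31, which mark blood cells and endothelium. These counts are therefore not independent of the sort. None of these macrophage and endothelial markers was at the floor in all tumors. Of 9 skeletal muscle markers 0 were called in either comparison. Schwann and glial markers, with 0 of 9 called against KO MSCs and Gfap alone called lower against WT MSCs, averaged 5.72 to 6.33 in tumors, 6.14 to 6.69 in KO MSCs and 6.39 to 6.7 in WT MSCs. The part of all these markers in the levels of Met, Hgf and Axl was not tested.

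Between KO and WT MSCs, none of the 10 genes passed. Limma called 0 of 18948 genes (0.0%), with 1637 genes (8.64%) and 7 of the 10 at an unadjusted p under 0.05, and the smallest adjusted p of any gene was 0.551. With weights for library quality, limma called 2447 genes and 5 of the 10. All 3 KO MSC libraries lay below all 3 WT MSC libraries for Hgf, Egfr, Erbb2, Axl, Fgfr1, Fgfr2 and Fgfr3, where 8.93% of all genes did so. The median difference was -1.35 for the 10 genes and -0.01 for all genes tested. Egfr differed by -2.19 ± 0.51, with -1.45 within set 1 and -2.56 within set 2 (limma adjusted p = 0.551). Erbb2 differed by -2.07 ± 0.68 and Fgfr1 by -1.95 ± 0.46, both with the same adjusted p of 0.551 from limma. Met differed by 0.13 ± 0.20 (limma adjusted p = 0.906) and Erbb3 by 0.41 ± 0.36 (0.776), both near the floor. Of the 98 pathway genes, 0 were called and the median difference was -0.26. In the marker lists 0 were called too, with median differences from -1.30 for LepR+ stromal markers to 0.12 for epithelial markers. The library labelled KO_MSC 3 was the lowest of the 3 for Hgf, Egfr, Erbb2, Axl, Gas6, Fgfr1, Fgfr2 and Fgfr3, and had the most genes at the floor of all libraries, 12336. KO and WT MSCs enter the comparisons with tumors, so the 3 comparisons share libraries. For Egfr, Erbb2, Gas6, Fgfr2 and Fgfr3 the order of the means was tumor, KO MSC and WT MSC, low to high, and of the neighbors in this order only Gas6 in tumors and KO MSCs passed.

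**Figure D4:**
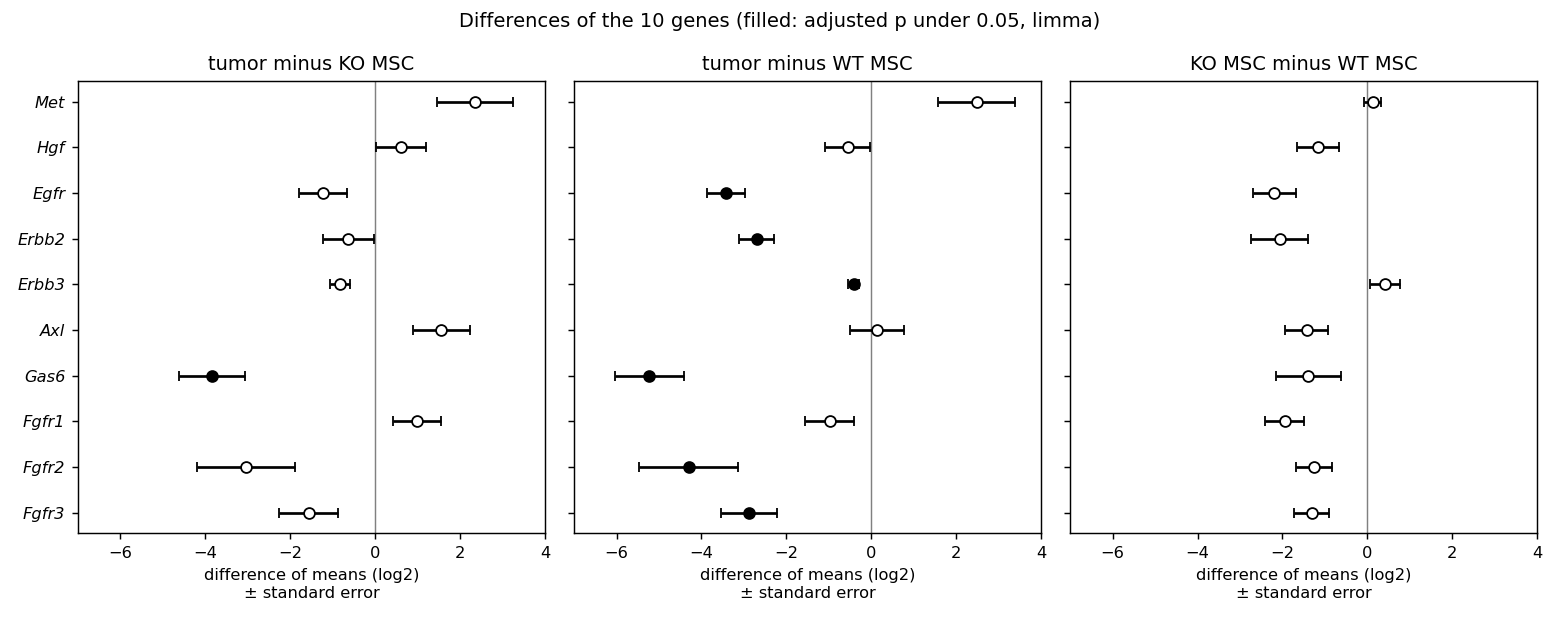
Difference of group means with its standard error (horizontal axis, log2) for the 10 genes (rows), for tumor minus KO MSC, tumor minus WT MSC and KO MSC minus WT MSC from left to right. Filled points passed at an adjusted p under 0.05 (limma); they are Gas6 in the left panel and Egfr, Erbb2, Erbb3, Gas6, Fgfr2 and Fgfr3 in the middle panel.

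The genes most like each member across all 12 libraries were ranked by Pearson's r over 8094 or 8095 genes with a group mean of at least 8. These r are descriptions over libraries of 3 groups, which also differ in the levels of many other genes. Fgfr2 and Fgfr3 were each other's nearest gene (0.970), followed for both by Klhl24 (0.959 with Fgfr2 and 0.950 with Fgfr3). Gas6 was closest to the Wnt receptor gene Fzd1 (0.996), then Gpr176 (0.987) and Erlin2 (0.982). Egfr was closest to Zfp423 (0.973), a zinc finger factor of fat precursors, and Erbb2 to Angpt1 (0.977), the ligand of the receptor TEK. Met was closest to Lsp1 (0.974), a leukocyte protein that binds actin, then Fbln2 (0.966), a matrix protein, and Cst6 (0.936), a cystatin. Hgf was closest to Etv5 (0.949), Fgfr1 to Notch2 (0.948), Erbb3 to Hnrnpab (0.959) and Axl to Tmem106a (0.918). Erbb3 was at the floor in 8 of the 12 libraries and Met in 4. Their r therefore rest in part on floor values, which differ between the library sets.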

How the data were processed

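RNA was measured by bulk sequencing in 12 libraries. Per the submitters' processing notes, the tools were TopHat2 2.0.13, Cuffdiff and Cufflinks 2.2.1, with mm10 as the genome build. How values were made after alignment is not given in the sources. The authors deposited log2 values of 24421 genes, titled as variance-stabilized and batch-adjusted. The second table that the authors deposited is titled as normalized counts, but holds a score. In every library a common factor turns the stabilized value, multiplied by 100 and then rounded, into this score. This held for 100% of the 18949 genes of the second table (relative tolerance 1e-06). Reads cannot be recovered from either, so depth is unknown and no count test was run. In total 1451 genes were constant at 4.75, and 9803 had a floor shared exactly within each of 2 sets of libraries (tolerance 1e-05), at up to 1.92 from the common floor and symmetric around it.

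For each comparison limma 3.58.1 (R 4.3.3) was run on the libraries of its 2 groups, without covariates, using lmFit and eBayes(trend=TRUE) and two-sided tests. A gene passed at an adjusted p under 0.05 after Benjamini-Hochberg adjustment over the 18948 genes of the second table that varied. Whether libraries stem from different animals is not labelled. The p-values therefore reflect only how far these libraries differ from each other, possibly for technical reasons. The batch adjustment made before deposit is not accounted for in them. Correlations used exact permutation tests (scipy 1.17.1). The fit was tested on simulated data.

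The 10 genes and the 14 lists (175 genes, 166 tested) were chosen with earlier results of these data known. The lists were MET ligand activation and partners, ERBB ligands, TAM partners, FGF ligands, FGF receptor relatives, receptor adaptors, ERK feedback inhibitors and targets, and markers of macrophages, endothelium, epithelium, Schwann cells and glia, skeletal muscle, LepR+ stroma, and cartilage and bone. Named genes were the 10, Trp53, up to 6 passing genes per list by smallest adjusted p, and the 3 genes most like each of the 10. Alternatives changed the table, the filter, the scaling, the treatment of the sets, the spread, the weights and the libraries included. Sequences and coordinates are from RefSeq (GRCm38.p6), and exon overlaps from GENCODE M21.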

Additional observations from a re-analysis of the deposited data

Results flagged for a closer look

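Of 68 genes examined for a tumor that stands apart from the other 5, 2 were picked out, and chance alone picks out about 1 in 20. None of the 10 receptor and ligand genes was among them. Fgf1, which encodes acidic FGF, a ligand of all FGF receptors, was at 7.10 in tumor 1, with the next tumor at 5.86. Csf1r, the receptor kinase of macrophages, was at 13.88 in tumor 4, with the next tumor at 10.6.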

How the results depend on the processing

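Gas6, Egfr and Erbb2 were called lower in tumors against WT MSCs in every fit without 1 library, and in set 2 alone (adjusted p = 0.0393, 0.0341 and 0.0382, limma). With the library set as a term, 5 of the 6 calls against WT MSCs held, all but Erbb3. In set 1 alone, with 1 library of each kind of MSC, Erbb3 differed by -1.52 from KO MSCs and -0.61 from WT MSCs. A call of Erbb3 there rests on the floor value that tumors 1 to 3 share, which leaves no spread among them. Gas6 differed by -5.3 from WT MSCs in set 1, and none of the 10 genes but Erbb3 was called there. Counts of genes called against KO MSCs (944) were 1519 with a mean of at least 6, 1481 with quantile scaling (520 higher and 961 lower, beside 512 and 432), 3277 in set 1 alone, 229 in set 2 alone, 1923 in 1 fit over all libraries, 4821 with library weights and 113 to 1627 without 1 library. The lowest was without the library labelled KO_MSC 1, and it was 396 without KO_MSC 2, 1627 without KO_MSC 3, 597 without tumor 5 and 621 without tumor 6. Of the 10 genes, 1 was called, but 2 with the second table, with upper-quartile centring or in 1 fit over all libraries, 0 in set 2 alone, 4 with library weights and 0 to 2 without 1 library. Against WT MSCs, the 4033 genes became 775 in set 2 alone, 6821 with library weights and 1856 to 4737 without 1 library (1856, 2339 and 2268 without WT_MSC 1, 2 and 3), and the 6 of 10 became 1 in set 1 alone and 3 to 6 without 1 library. Between KO and WT MSCs, library weights called 2447 genes and 5 of the 10, and fits without 1 library called 0 to 0. The weights stopped before convergence in 2 of the 3 comparisons. Met against WT MSCs passed with a mean of at least 6 (adjusted p = 0.0461), upper-quartile centring (0.0405) and library weights (0.0185), all limma. Directions reversed without a call for Hgf against KO MSCs in set 1 alone (-0.05), for Fgfr1 against WT MSCs in set 1 alone (0.01) and for Axl against WT MSCs with quantile scaling (-0.42), in set 1 alone (-0.45), with the replicate block (-0.08) and without tumor 2 (-0.06), tumor 4 (-0.25) or WT_MSC 3 (-0.05), the Axl difference running from -0.25 to 0.36 without 1 library. The cause was not tested.

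No pairing of the libraries by replicate number was seen. Correlations of same-numbered libraries ran from -0.319 to 0.238, within the range of -0.324 to 0.298 for libraries with different numbers. Some same-numbered libraries lay in different library sets. Whether equal numbers share an animal or a preparation was not tested. With a replicate block, 34 genes and 0 of the 10 were called against KO MSCs, 1445 genes and 3 of the 10 against WT MSCs, and 0 between KO and WT MSCs. KO against WT MSCs could not be fitted in set 1 alone, where each had 1 library, and the filter at a mean of 6 left Erbb3 out. Unknown depth limits what the floor values of Met, Erbb3 and Fgfr3 can show.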

Other observations

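Genes within 500 kb of Met on chromosome 6 were examined after the high Met value of tumor 4 was seen, and 7 were tested. Of these, 3 were highest in tumor 4 (Tes, Cav2 and Cav1), as was Met, 2 in tumor 5 (Capza2 and Wnt2), 1 in tumor 6 (St7) and 1 in tumor 3 (D830026I12Rik). Tumor 4 was the highest tumor in 33.4% of all genes tested. Wnt2, which encodes a Wnt ligand, had 10.35 in tumor 5, 7.51 in tumor 4 and 5.16 to 5.60 in the other tumors. Tes, which encodes a protein of cell adhesions, had 15.42 in tumor 4 and 7.57 to 12.21 in the other tumors, against 7.01, 5.08 and 5.08 in KO MSCs and 6.07, 6.25 and 5.47 in WT MSCs. Cav1, which encodes the main coat protein of caveolae, had 15.14 in tumor 4 and 8.11 to 12.35 in the other tumors, against 6.17, 4.76 and 8.04 in KO MSCs and 6.11, 7.75 and 7.05 in WT MSCs. Cav2, its partner, had 11.95 in tumor 4 and 9.38 to 10.44 in the other tumors, against 6.76, 6.83 and 7.78 in KO MSCs and 7.03, 8.73 and 7.82 in WT MSCs. Cav2 rose in tumors by 3.08 ± 0.56 over KO MSCs (limma adjusted p = 0.0134) and by 2.35 ± 0.58 over WT MSCs (0.0170). These calls were lost without the library labelled KO_MSC 1 or 2 (adjusted p up to 0.0997) and without WT_MSC 1 or 3 (up to 0.101). Cav1 rose by 4.82 ± 1.24 over KO MSCs (limma adjusted p = 0.0487). That call was lost without tumor 2, 3, 5 or 6 or the library labelled KO_MSC 1 or 2 (up to 0.204). Tes did not pass against KO MSCs (4.82 ± 1.43, limma adjusted p = 0.0746).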
